A study of Cricetiscus sungorus with 216 samples.

Results

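The 7 genes described here encode proteins of the myelin sheath and of the oligodendrocytes that make it: Mbp, Mobp, Mog, Mag, Cnp, Cldn11 and Mal. They were chosen by name, and the counts of all isoform rows of a gene were summed. Members were 7 of 20156 genes in the mediobasal hypothalamus (MBH), 7 of 21821 in the dorsomedial hypothalamus (DMH) and 6 of 18960 in the paraventricular nucleus (PVN), where Mag was not analysed.

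The samples were tissue punches from adult male Djungarian hamsters (Phodopus sungorus), a species that turns to a winter state in short days and returns from it while short days continue. An LP group stayed in long photoperiod (LD in the labels), and 8 groups were moved to short photoperiod (SP, SD in the labels) for 4, 8, 12, 16, 20, 24, 28 or 32 weeks. Each of the 9 groups held 6 hamsters, each hamster gave 1 MBH, 1 DMH and 1 PVN library, and the hamster codes in the labels tie the 3 libraries of an animal together. No group carried a transgene or a drug, and a punch is a mixture of neurons, glia and vessels, so that fewer oligodendrocytes and less RNA per oligodendrocyte cannot be told apart in any value below.

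Oligodendrocytes wrap axons in a multilayered membrane, the myelin sheath, which speeds the conduction of nerve impulses and supports the axon. In the hypothalamus myelinated fibres run in tracts such as the optic tract and the fornix and are sparse in many nuclei between them. Mbp binds the inner faces of the membrane together, and its messenger RNA is carried out into the sheath for local translation. Mobp is another small basic protein of compact myelin. Mog and Mag are immunoglobulin-type proteins on the outer and the axon-facing surface of the sheath. Cnp is an enzyme that counteracts compaction and keeps cytoplasmic channels open within compact myelin, Cldn11 forms the tight junctions of the sheath, and Mal is a membrane proteolipid that takes part in sorting to it.

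Libraries differed widely in depth. Total counts ran from 5996 to 13208361 in the MBH, from 149289 to 9084072 in the DMH and from 159 to 998245 in the PVN. Under 10000 counts were held by 1 MBH library (SP 20 weeks, replicate 2) and 2 PVN libraries (LP replicate 1 and SP 16 weeks replicate 4). In the DMH, 20 of 54 libraries had counts for under 5000 genes, against 2 in the MBH and 3 in the PVN, and the number of genes detected in a DMH library ran from 787 to 17626. A single predicted gene, Gm32262, took 8.33% to 65.7% of the counts of a library in the MBH and 13.5% to 69.1% in the DMH. Each result below was therefore also computed without the libraries under 5000 genes. Among markers of MBH neurons, Pomc and Cartpt had counts in 54 of 54 MBH libraries, Agrp and Sst in 53, Npy in 52, Kiss1 in 28 and Ghrh in 11. Among those listed for the DMH, Pmch had counts in 44 DMH libraries, Gal in 29, Hcrt in 26, Grp in 17 and Npvf in 9. Each had counts in more MBH libraries: Pmch in 52, Gal in 53, Hcrt in 37, Grp in 24 and Npvf in 39. These counts therefore do not set the DMH punches apart from those of the MBH. Of those of the PVN, 2 were measured, and Trh had counts in 51 PVN libraries and Sim1 in 14. Levels are given as CPM, counts relative to the library total after scaling by TMM factors within a region, levels are not compared between genes because transcript lengths were not used, and PVN levels are not set beside those of the other regions because the PVN table used other isoform identifiers.

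The first question was whether myelin genes changed with photoperiod. In the MBH no member passed an FDR of 0.1. Every SP group overlapped the LP group for each of the 7 genes. In all 3 regions, a p that missed the threshold does not show that a member's level was the same in SP and LP.

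Mbp in the MBH had a lowest, median and highest value of 247.4, 615 and 1516 CPM in LP. The same 3 values were 173, 713 and 2943 CPM at 4 weeks of SP, and 98.8, 173 and 3571 CPM at 8 weeks. At 12 weeks they were 183, 288.8 and 908 CPM, at 16 weeks 142, 339 and 541 CPM, and at 20 weeks 0, 388 and 1113 CPM. The ranges were thus widest in the first 8 weeks of SP, where single hamsters reached 2943 and 3571 CPM beside others at 173 and 98.8 CPM. At 24 weeks Mbp stood at 88.1, 477 and 918 CPM, at 28 weeks at 172.3, 315 and 1044 CPM, and at 32 weeks at 303, 769 and 1595 CPM. Averaged over 12 to 20 weeks, the log2 fold change against LP was -0.77 ± 0.56 (SE, adjusted p = 1 by the edgeR quasi-likelihood test).

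**Figure D1:**
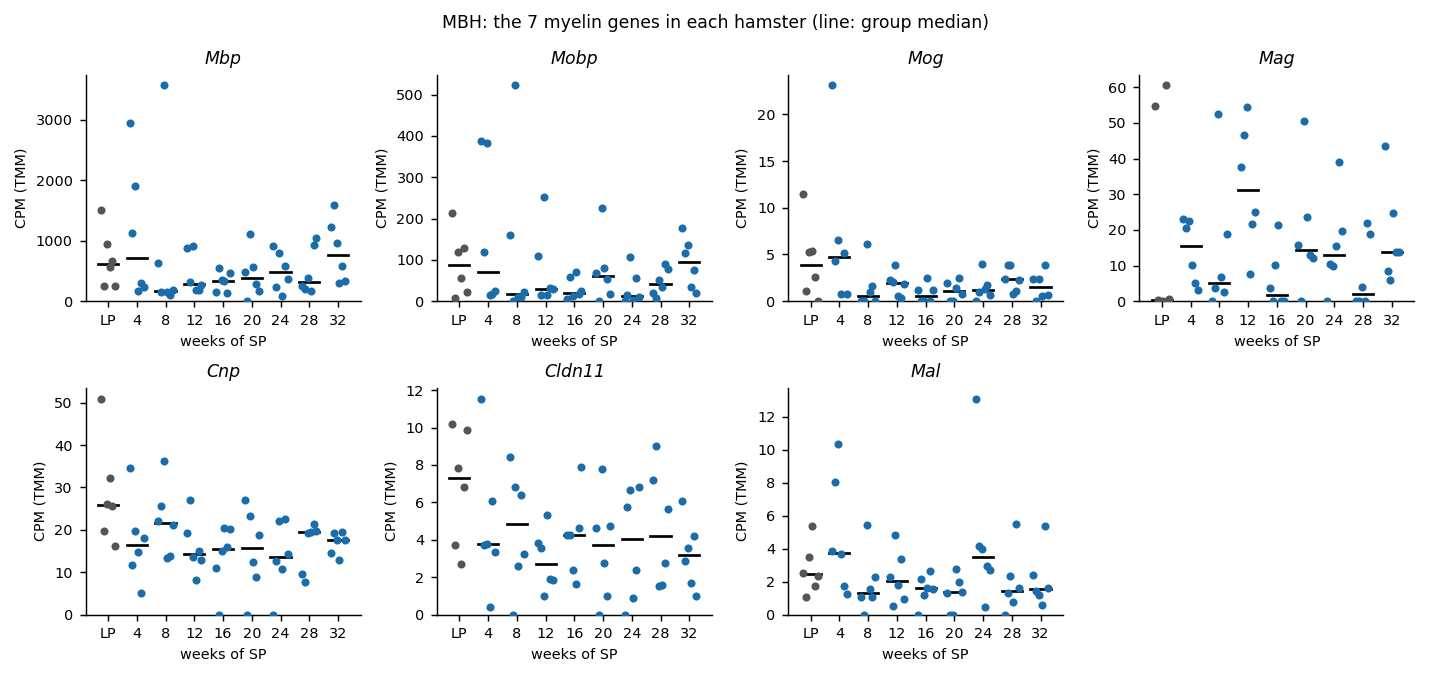
CPM (y axis, linear, from 0) of each myelin gene in the 54 MBH libraries, by weeks of SP (x axis, LP first); each point is 1 hamster and each line a group median. The SP points of each gene overlap the LP points, with Mbp running from 0 to 3571 CPM.

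Mobp, the other basic protein of compact myelin, spread in the same way. Its LP values had a lowest value of 6.63 CPM, a median of 86.7 CPM and a mean of 91.0 ± 77.8 CPM (SD, n = 6). Its SP medians lay between 12.4 CPM at 24 weeks and 95.4 CPM at 32 weeks, and single hamsters reached 522 CPM at 8 weeks. The change averaged over 12 to 20 weeks was -0.68 ± 0.72 on the log2 scale (adjusted p = 1, edgeR).

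Of the surface proteins, Mog had LP values from 0 to 11.5 CPM with a median of 3.89 CPM. Its SP medians ran from 0.517 CPM at 8 weeks to 4.77 CPM at 4 weeks. Its log2 fold change at 12 to 20 weeks, -1.55 ± 0.67 (SE), was the most negative of the 7, with an unadjusted p of 0.0239 and an adjusted p of 0.661 from edgeR. These levels rest on few reads, since the median MBH library held 3 Mog counts. Mag was at 0 in 11 of 54 MBH libraries, and its LP values ran from 0 to 60.5 CPM with a median of 0.422 CPM. In LP it was high in some hamsters and absent from the counts of others. Its median over the 18 hamsters at 12 to 20 weeks was 14.4 CPM, above the LP median, while its fitted change there was -0.29 ± 0.77 on the log2 scale.

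Cnp was the least variable member in the MBH, with a ratio of the upper to the lower quartile of 1.66 over the 54 libraries, where Mbp had 4.39, Mobp 7.37 and Mag 8.14. Cnp had LP values of 16.2, 25.8 and 50.95 CPM (lowest, median, highest). The 18 hamsters at 12 to 20 weeks had 0, 15.03 and 27.1 CPM, and the 18 hamsters at 24 to 32 weeks had 0, 17.7 and 22.5 CPM. The LP median was above that of all 8 SP groups, which ran from 13.5 to 21.7 CPM. The log2 fold change was -0.83 ± 0.32 (SE) at 12 to 20 weeks and -0.79 ± 0.31 at 24 to 32 weeks, with unadjusted p of 0.0115 and 0.0157 and adjusted p of 0.579 and 0.702 from edgeR. Cldn11 had LP values from 2.69 to 10.2 CPM with a median of 7.32 CPM, and a median of 3.70 CPM at 12 to 20 weeks. Its log2 fold change there was -0.91 ± 0.45 (unadjusted p = 0.0456, adjusted p = 0.849, edgeR). Mal had LP values from 1.06 to 5.37 CPM and a change of -0.53 ± 0.55.

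At the 12 to 20 week phase, when hamsters of this species are in the winter state, all 7 members had a log2 fold change below 0 in the MBH, but Mag changed sign with library totals in place of TMM (0.05) and without replicate 1 (0.35) or 5 (0.78). The median CPM of Mag was above that of LP, as given above. The median log2 fold change of the 7 was -0.77, while the median over all genes was 0 and 49.7% of all genes were below 0. None of the 7 passed an FDR of 0.1, against 0.203% of all genes tested. At an unadjusted p under 0.05, 3 of the 7 were lower, against 4.1% of all genes. The 7 genes move together between punches, as given below, so they are not 7 separate observations. At 24 to 32 weeks all 7 were again below 0, with a median of -0.74, and at 4 and 8 weeks 4 of 7 were. None passed an FDR of 0.1 in either phase, against 0.169% and 0.0447% of all genes. The F-test over the 9 groups called 0 members and 0.442% of all genes, and 0 of 56 pairs of member and SP week passed, against 0.0093% of all pairs of gene and week. At an unadjusted p under 0.05 there were 5 of the 56 pairs, against 4.56% of all pairs, and the smallest adjusted p was 0.928 by edgeR. For Mbp at 12 to 20 weeks, the fitted value ± 2 SE covered ratios to LP from 0.271 to 1.27, and for Cnp from 0.363 to 0.873. Unlike the members, a list of 7 pituitary markers had 2 genes that passed an FDR of 0.1 as lower at 12 to 20 weeks in the MBH. By edgeR they were Tshb (log2 fold change -8.56, adjusted p = 4.48e-12) and Cga (-3.41, adjusted p = 0.0114). In its model the paper gives low Tshb in the pars tuberalis after transfer to SP. The list also holds Pomc, named above as a marker of MBH neurons. The summed level of the 7 markers had a median of 1490 CPM in LP and 210 CPM at 12 to 20 weeks, with ranges of 763 to 2342 and 15.3 to 475 CPM. The part of these markers in the member values was not tested.

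In the DMH no member passed an FDR of 0.1 either, and many libraries held no counts for some members. Mbp had DMH values in LP of 60.4, 451 and 1332 CPM (lowest, median, highest). Its SP medians ran from 88.0 CPM at 32 weeks to 440 CPM at 12 weeks, and in 7 of the 54 libraries it was at 0. Mobp was at 0 in 14 DMH libraries, Mog in 13, Mag in 22, and Cnp, Cldn11 and Mal in 19 each. At 12 to 20 weeks 6 of 7 members had a log2 fold change below 0, with a member median of -1.08, but the median over all DMH genes was itself -0.26 and 60.7% of all genes were below 0. Mag had the most negative value, -1.51 ± 0.78 (SE, adjusted p = 0.538, edgeR), and Mog had 0.01 ± 0.71, whose sign turned under 9 of 15 alternatives. The F-test over the 9 groups called 0 of 7 members and 4.62% of all genes. The phases at 4 and 8, 12 to 20 and 24 to 32 weeks each called 0 members, against 0.669%, 0.898% and 0.293% of all genes. Of 56 pairs of member and SP week 0 passed, against 0.00401% of all pairs, and 2 had an unadjusted p under 0.05, against 6.85% of all pairs. Without the 20 libraries under 5000 genes, the changes at 12 to 20 weeks were -0.45 ± 0.52 for Mbp and -0.82 ± 0.61 for Mobp.

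In the PVN none of the 6 members passed an FDR of 0.1. Mbp had PVN values in LP of 0, 469 and 908 CPM (lowest, median, highest), the 0 being the library with 159 counts. Its SP medians ran from 240 CPM at 16 weeks to 640 CPM at 28 weeks, and single hamsters reached 2056 CPM at 4 weeks. Mobp had SP medians from 105 CPM at 16 weeks to 336 CPM at 20 weeks around an LP median of 193 CPM. Cldn11 had the smallest p of the members in the PVN. Its LP values ran from 0 to 68.7 CPM with a median of 16.1 CPM, and the 18 hamsters at 12 to 20 weeks ran from 0 to 20.4 CPM with a median of 7.61 CPM. The log2 fold change was -1.48 ± 0.56 (SE, unadjusted p = 0.00988, adjusted p = 0.958, edgeR), and the gene was at 0 in 15 of 54 libraries with a median count of 1. At 12 to 20 weeks 5 of 6 members were below 0, with a median of -0.43, where 46.1% of all genes were below 0. The F-test called 0 members and 0.0158% of all PVN genes, and the 3 phases called 0 members and 0%, 0.0158% and 0.00527% of all genes. Of 48 pairs of member and SP week 0 passed, against 0% of all pairs, and 4 had an unadjusted p under 0.05, all of them Cldn11, against 3.67% of all pairs.

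**Figure D2:**
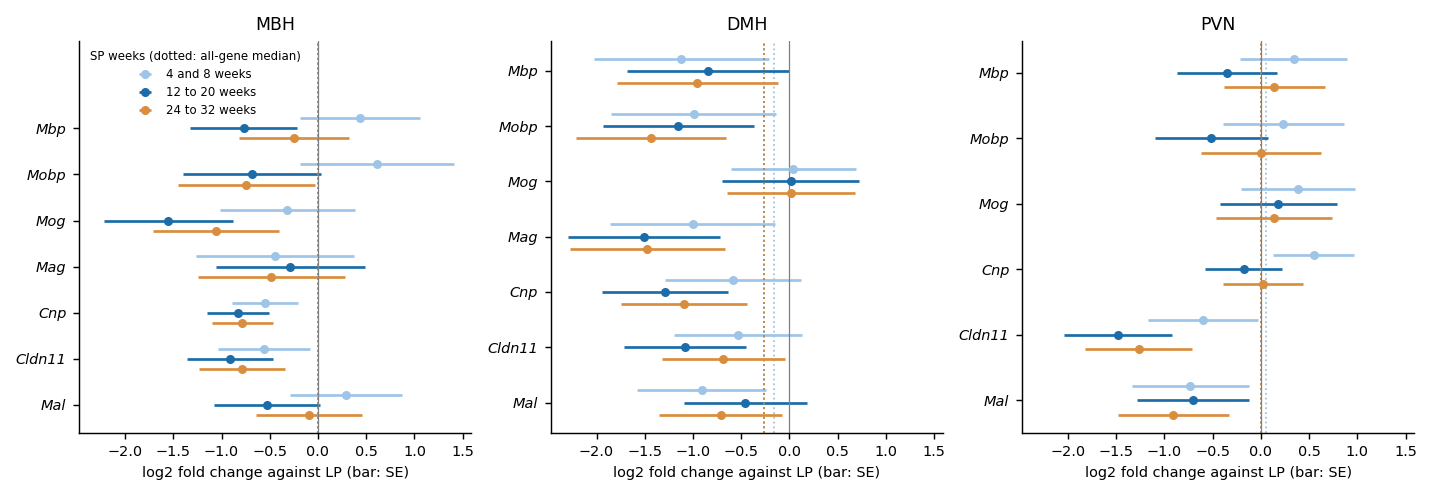
Log2 fold change against LP (x axis) of each member (y axis) at 4 and 8, 12 to 20 and 24 to 32 weeks of SP in the 3 regions, with bars of 1 SE; dotted lines mark the median over all genes. In the MBH all 7 values at 12 to 20 weeks lie below 0, between -1.55 and -0.29, and no value in any region passed an FDR of 0.1.

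The other genes of the lineage gave few calls. Of 29 other myelin proteins measured in the MBH, 1 was lower at 12 to 20 weeks: Aspa, the oligodendrocyte enzyme that splits N-acetylaspartate, named here after its value was seen, with a log2 fold change of -3.99 (adjusted p = 0.0764, edgeR) and counts in 32 of 54 libraries. Gpm6b, a membrane glycoprotein of neurons and glia, had a log2 fold change of -0.06 ± 0.25 at 12 to 20 weeks in the MBH, and Cryab, a small heat shock protein, had 0.38 ± 0.38. The median over the 29 genes was -0.34, with 23 below 0. No gene of myelin lipid synthesis passed in the MBH (0 of 11, median -0.50), and neither did a transcription factor of the lineage (0 of 11, median -0.22) or a precursor gene (0 of 12, median 0.00). Scd2, a desaturase of fatty acid synthesis, had -0.15 ± 0.24, Hmgcs1, an enzyme of cholesterol synthesis, 0.28 ± 0.27, and Gal3st1, the enzyme that makes sulfatide, -0.38 ± 0.86. Of the transcription factors, Nkx6-2 had 0.46 ± 0.58 and Zfp536 0.88 ± 1.22, and Tcf7l2, a factor that acts when oligodendrocytes mature but is also expressed in neurons, had -0.22 ± 0.44. Tnr, an extracellular matrix protein, had 0.00 ± 0.41, and Sox6, a factor of precursors, had -2.54 ± 0.65 (adjusted p = 0.109, edgeR). Gfap, an astrocyte filament gene, was lower in the DMH at 12 to 20 weeks (log2 fold change -3.29, adjusted p = 0.0534, edgeR; counts in 20 libraries). In the DMH, 0 of 29 other myelin proteins, 0 of 11 lipid genes and 0 of 12 precursor genes passed at 12 to 20 weeks, and 1 of 11 transcription factors did, Sox10, which defines the lineage and had counts in 17 of 54 libraries (log2 fold change -2.23, adjusted p = 0.0975, edgeR; named after its value was seen). Without the libraries under 5000 genes, 0 of 21821 DMH genes passed at 12 to 20 weeks, so neither Gfap nor Sox10 did. In the PVN, none of 25 other myelin proteins, 9 lipid genes, 5 transcription factors and 11 precursor genes passed. Of 10 astrocyte, 10 neuron and 10 microglia markers, none passed at 12 to 20 weeks in the MBH, and the medians of their log2 fold changes were -0.18, -0.04 and -0.19. In the DMH these medians were -0.35, -0.81 and -0.57, with 9 of 10 genes below 0 in each list, and in the PVN 0.07, -0.22 and -0.13. Their part in the member values was not tested.

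The second question was how the members varied among hamsters of the same group. After removal of group means, the log2 CPM of Mbp and Mobp correlated with a Pearson r of 0.79 in the MBH, 0.82 in the DMH and 0.88 in the PVN (n = 54 hamsters in each). These r describe genes measured in the same library, which share its depth and composition, and no p is given. Differences between replicate numbers, given at the end, were not removed. Over all pairs of members the median r was 0.44 in the MBH (20 of 21 pairs above 0), 0.50 in the DMH (21 of 21) and 0.53 in the PVN (15 of 15). Over all pairs of the genes that passed a count filter, the median r was 0.29 in the MBH, 0.37 in the DMH and 0.36 in the PVN. Without the libraries under 5000 genes that background fell to 0.12, 0.12 and 0.11, while the members' median was 0.34, 0.49 and 0.48. Mbp with Mobp then had r of 0.88, 0.89 and 0.92.

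Within the set the pairs were unequal. In the PVN Mbp, Mobp, Mog and Cnp had r of 0.58 to 0.88 among themselves, and Mal had the lowest values, 0.20 to 0.34. In the MBH Cnp, Cldn11 and Mal had r of 0.43 to 0.49 with Mbp, but Cnp with Mal had r of -0.01 and Cldn11 with Mal 0.00. In the DMH Mag correlated with Cldn11 at 0.75 and with Cnp at 0.67. The members differ in counts: the median MBH library held 589 Mbp counts but 3 Mal counts.

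**Figure D3:**
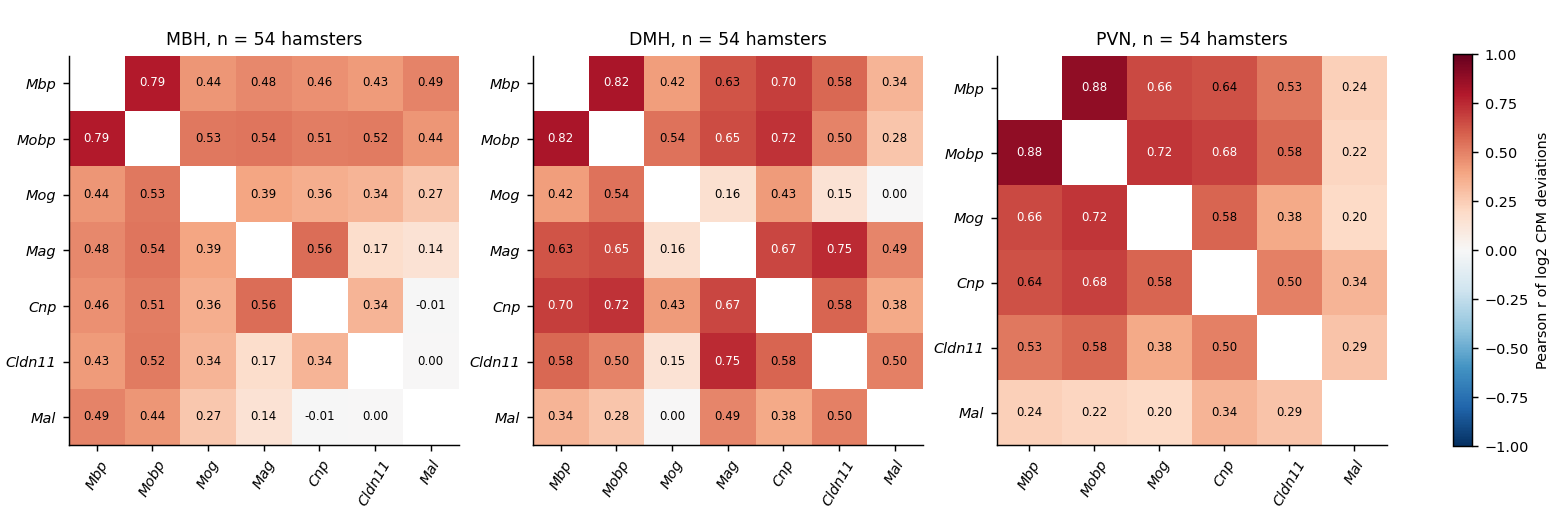
Pearson r (colour and number, scale from -1 to 1) between members over 54 hamsters, as log2 CPM minus the group mean, in each region. Mbp with Mobp is the strongest pair in each panel, at 0.79, 0.82 and 0.88.

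Genes were ranked by their likeness to the set, as Pearson r with the mean z-score of the members over 54 libraries, among 3426 genes in the MBH, 690 in the DMH and 5298 in the PVN. In the MBH the 5 most alike included Bcas1, a gene of newly formed oligodendrocytes (0.73), Plekhb1 (0.72), Snap25, a synaptic protein of neurons (0.69), and Gja1, an astrocyte connexin (0.68). In the PVN they included Csrp1 (0.77), Ptgds, a prostaglandin synthase of oligodendrocytes and meninges (0.73), Apod, a lipid carrier of glia (0.72), and Kif5a, a motor protein of neurons (0.72). The DMH gave another order: the 5 leading genes were Gm2546 (0.81), Cbx5, Map1a, Gm4575 and Gm13292 (0.80). In the DMH the members' score also had an r of 0.78 with the number of genes detected, against 0.37 in the MBH and 0.56 in the PVN. Without the libraries under 5000 genes, that r was 0.59 in the DMH, -0.04 in the MBH and 0.29 in the PVN, and that with the other myelin proteins was 0.88, 0.80 and 0.83. In those libraries the score had r of 0.21 with the neuron markers and 0.43 with the astrocyte markers in the MBH, 0.72 and 0.60 in the DMH, and 0.18 and 0.38 in the PVN. With the microglia markers it had r of 0.16 in the MBH, 0.61 in the DMH and 0.66 in the PVN, the last being above its r with the lineage's lipid genes (0.43), transcription factors (0.50) and precursor genes (0.02) there. The parts of depth and of other cell types in these relations were not tested.

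The third question was whether a hamster with high myelin transcripts in one region had them in another, where the libraries are separate. Here too differences between replicate numbers were not removed, and the permutations took the hamsters of a group as exchangeable. No member passed. Between the MBH and the DMH, 4 members could be tested, those with enough counts in both: Mbp had r = -0.14 (permutation p = 0.287, adjusted p = 0.957), Mobp -0.24 (permutation p = 0.0770, adjusted p = 0.954), Cnp 0.01 and Mag 0.08. For Mobp, Spearman's rho was -0.30 (permutation p = 0.0312, adjusted p = 0.727), and r was -0.31 (permutation p = 0.0237) without the 2 hamsters farthest from the MBH median. Of 6147 genes tested in this pair of regions, 0% passed an FDR of 0.1 by the permutation test and 4.77% had an unadjusted p under 0.05. Between the MBH and the PVN, Mbp had r = -0.12, Mobp -0.06 and Cnp -0.03, and 0.0293% of 3418 genes passed, with 4.13% at an unadjusted p under 0.05. Between the DMH and the PVN, Mbp had r = -0.32 (permutation p = 0.0311, adjusted p = 0.966), Mobp -0.29 (permutation p = 0.0734) and Cnp -0.04, and 0% of 3126 genes passed, with 4.8% at an unadjusted p under 0.05. Spearman's rho for Mbp was -0.23 (permutation p = 0.121), -0.05 (permutation p = 0.723) and -0.32 (permutation p = 0.0382) in the 3 pairs, and without the 2 hamsters farthest from the median of the first region r was -0.18, -0.12 and -0.29. The sign turned in 2 pairs without hamsters that had a library under 5000 genes: Mbp then had r = 0.05 between MBH and PVN (n = 49) and 0.26 between DMH and PVN (n = 32), with adjusted permutation p of 0.990 and 0.819. Mobp then had r = 0.13 and 0.31 in these pairs (permutation p = 0.0283 and adjusted p = 0.755 for the second) and Cnp had 0.27 in both, so none of the 3 members kept a negative r in them. Between MBH and DMH Mbp had r = -0.42 (n = 33, permutation p = 0.0297, adjusted p = 0.799).

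**Figure D4:**
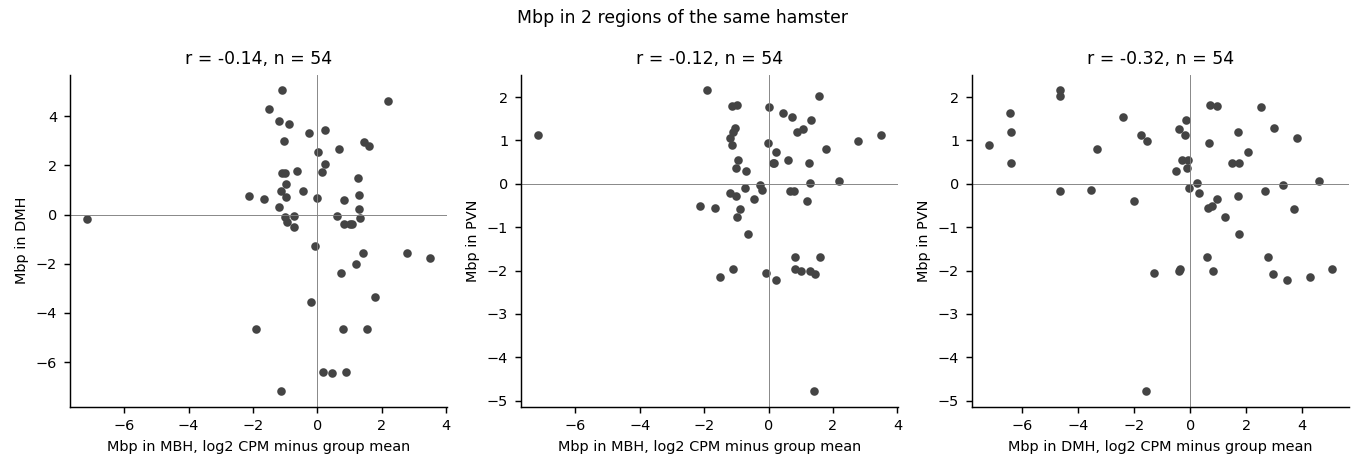
Mbp in 2 regions of the same hamster, as log2 CPM minus the group mean on both axes, 1 point per hamster (n = 54 in each panel). The r are -0.14, -0.12 and -0.32, and none passed an FDR of 0.1.

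The last comparison set the DMH beside the MBH of the same 54 hamsters, over the isoforms that both tables list. With TMM scaling, 6 of 7 members were higher in the DMH, against 2.76% of 17693 genes that were higher and 39.2% that were lower. Mog had the largest difference, 2.31 ± 0.28 on the log2 scale (SE, adjusted p = 1.04e-09, edgeR with a block per hamster), and was higher in the DMH in 39 hamsters and in the MBH in 12. Mbp differed by 1.28 ± 0.47 (adjusted p = 0.0271, edgeR), with 744 ± 699 CPM in the DMH and 276.6 ± 297 CPM in the MBH (SD, n = 54), and was higher in the DMH in 37 hamsters. Mobp (1.24 ± 0.50), Mag (1.10 ± 0.47), Cldn11 (0.60 ± 0.27) and Mal (1.45 ± 0.29) were higher too, and Cnp differed by -0.03 ± 0.27 (adjusted p = 0.953, edgeR). Mobp was higher in the DMH in 32 hamsters and in the MBH in 22, Mal in 32 and 20, and Mag in 27 and 21. Cldn11 (adjusted p = 0.0764, edgeR) was evenly split over hamsters, with 26 each way, and Cnp had 25 and 27. The median over all genes was -0.56, and the median over the members 1.24. The share of all genes that were lower rests on this scaling with libraries of few genes, and it fell in the better covered hamsters, as given next. The CPM of this comparison use the shared isoforms and a joint scaling, so they differ from the MBH and DMH levels given above.

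The difference was clearest in the 30 hamsters whose MBH and DMH libraries both had counts for 5000 genes or more. Genes were counted here over the shared isoforms only. There all 7 members were higher in the DMH, against 3.44% of all genes that were higher and 13.7% that were lower. Mbp ran from 37.8 to 1301 CPM in the MBH with a median of 125 CPM, and from 284 to 3501 CPM in the DMH with a median of 1092 CPM, and it was higher in the DMH in 28 of 30 hamsters. Its log2 difference was 2.87 ± 0.26 (SE, adjusted p = 5.28e-10, edgeR). Mobp was higher in 27 of 30 hamsters, Mog in 28, Mal in 25, Mag in 24, Cnp in 22 and Cldn11 in 20, and the log2 difference of Cnp, the smallest, was 0.71 ± 0.22 (adjusted p = 0.0303, edgeR). These values turn on the scaling. With library totals in place of TMM, which moved the median of all genes from -0.56 to -2.41, Mbp had a log2 difference of -0.83 over the 54 hamsters, Mobp -0.96, Mag -1.04, Cnp -2.35, Cldn11 -1.61, Mal -0.64 and Mog 0.33. Mbp, Mag, Cnp and Cldn11 were then lower in the DMH at an FDR of 0.1, where 14358 of 17693 genes passed in either direction. In the 30 hamsters the same scaling gave a median of all genes of -1.53, and 12303 of 17693 genes passed in either direction. Mbp (1.45 ± 0.31), Mobp (1.55 ± 0.42) and Mog (1.495 ± 0.43) remained higher in the DMH, with adjusted p of 8.86e-05, 0.00114 and 0.00200 from edgeR. Cnp had -0.69 ± 0.40 and Cldn11 -0.47 ± 0.45. Mbp lay above the median of all genes under both scalings and in both sets of hamsters. A change of scaling shifts all genes nearly alike, so this cannot decide between the scalings, and no direction is concluded from it.

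**Figure D5:**
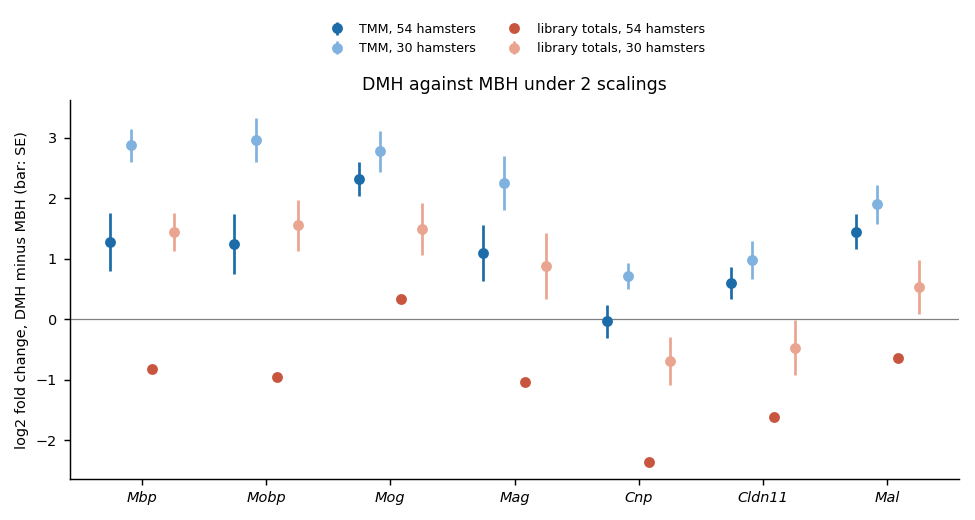
Log2 fold change of the DMH over the MBH (y axis) for each member (x axis) with TMM factors or library totals. Values are over 54 hamsters or over the 30 with 5000 genes or more in both libraries, counted over the shared isoforms. Bars are 1 SE and are not drawn for library totals over 54 hamsters. With TMM the values lie at or above -0.03, and with library totals over 54 hamsters they run from -2.35 for Cnp to 0.33 for Mog.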

How the data were processed

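Punches of the MBH, DMH and PVN were sequenced by the authors as PCR-amplified cDNA on nanopore flow cells. Reads were called with guppy, trimmed with Porechop and filtered with Filtlong. The paper describes alignment with Minimap2 to the mouse genome, quantification with Salmon and removal of low-count transcripts with edgeR. In the MBH and DMH, hamster reads were thus counted on mouse transcripts. The isoform identifiers of the PVN were shared with neither the MBH nor the DMH. Their annotation was not given, so counting on mouse transcripts is not stated for the PVN. The deposited values are estimated counts per isoform that the authors obtained with Salmon, not normalized. They were summed per gene symbol and rounded here. Reads that several isoforms could share were split between rows by Salmon, so only gene sums are described. The pituitary table was not used here.

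Gene sums of each region were fitted alone with the quasi-likelihood test of edgeR 4.0.16 in its legacy form (R 4.3.3), with TMM factors, 9 groups, no filter and Benjamini-Hochberg adjustment over all genes (FDR below 0.1). Contrasts were the 8 SP weeks together (F-test), each week, and the phases 4 and 8, 12 to 20 and 24 to 32 weeks against LP. DMH and MBH were compared in 1 model with a block per hamster. Correlations between regions used log2 CPM (prior count 2) minus the group mean, with two-sided p from 100000 permutations of hamsters within groups, over genes that passed edgeR's filterByExpr in both regions. Alternatives were other scalings, filters, DESeq2 1.42.0, the isoform with the most counts, a replicate block, and libraries left out. The one without libraries under 5000 genes, and the comparison of replicate numbers, were chosen after seeing the data. The functions were tested on simulated data.

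The members and gene lists were chosen with earlier results of these data known. Named genes are all members, of each further list the 2 with the highest mean CPM in the MBH and the one with the smallest F-test p in a region, and the 5 most like the members. Not every gene that these rules name is printed, an item among them is not reported here, and Aspa and Sox10 were named after their values were seen. Replicates are separate hamsters.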

Additional observations from a re-analysis of the deposited data

Results flagged for a closer look

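Of 180 groups of 6 libraries, 17 held a library whose gap to its nearest neighbour relative to the group's range was above Dixon's 95% critical value, where chance gives about 1 in 20. In the MBH, the SP 20 weeks replicate 2 library, which held 5996 counts, had 0 CPM for Mbp, Mag and Cnp. Also lowest in their MBH groups were Mag and Cnp at 0 CPM in SP 24 weeks replicate 1, and Cnp at 0 CPM in SP 16 weeks replicate 2. In the DMH, LP replicate 3 had 0 CPM for Mobp, Mog and Cnp. Mbp stood at 21.95 CPM in SP 12 weeks replicate 2 and at 0 CPM in SP 28 weeks replicate 4 of the DMH, and Mobp at 3.28 CPM in SP 12 weeks replicate 3. The single library that stood above its group was DMH SP 16 weeks replicate 3, with 10.2 CPM of Mag. In the PVN, LP replicate 1, the library with 159 counts, had 0 CPM for Mbp and Mobp. Mobp stood at 31.2 CPM in PVN SP 24 weeks replicate 6, and Cnp at 11.4 CPM in PVN SP 12 weeks replicate 1.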

How the results depend on the processing

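No member passed an FDR of 0.1 with photoperiod in any region under any alternative except 1. With the isoform with the most counts of each gene in place of the gene sum, the MBH gave 2 members over the 9 groups, against 130 of 20156 genes. It gave 1 at 12 to 20 weeks (Mbp, lower, adjusted p = 0.0258, edgeR), against 84 of 20156 genes. It also gave 1 between 24 to 32 and 12 to 20 weeks (Mbp, higher) and 2 pairs of member and week. The Mbp isoform used held 4176 of the 50732 Mbp counts in the MBH, and the cause was not tested. The 6 members that differed between DMH and MBH became 3 with edgeR's filterByExpr, a filter that removed Mog, Cldn11 and Mal before testing. There 3256 of 5280 genes passed in either direction. Library totals without libraries under 5000 genes gave 3 members, where 12303 of 17693 genes passed. Leaving out each replicate number in turn gave 2 to 6 members, where 5528 to 6861 of 17693 genes passed in either direction. Without replicate 5 there were 3 members and 5528 genes, and without replicate 6 there were 2 members and 6344 genes. The quasi-likelihood method of edgeR 4 in place of its legacy form gave 4 members, where 7074 genes passed. With library totals over 54 hamsters the log2 difference turned to -1.61 for Cldn11, -1.04 for Mag, -0.64 for Mal, -0.83 for Mbp and -0.96 for Mobp. Cldn11 also turned to -0.47 with library totals in the 30 hamsters, and Cnp turned to 0.71 without libraries under 5000 genes and to 0.47 with the isoform with the most counts. The comparison of replicate numbers, added after seeing the data, gave 1 member in the MBH (Mobp), against 0.516% of all genes. It gave 2 there with filterByExpr, without libraries under 5000 genes or with library totals, against 2.46%, 1.27% and 1.4% of genes tested. At an FDR of 0.05 there were 0 members in the MBH, except with library totals, where Mobp had an adjusted p of 0.0230 (edgeR).

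Replicate numbers were checked as a pairing: the mean correlation between same-numbered libraries of different groups ran from 0.01 to 0.14, and 35 (MBH), 30 (DMH) and 34 (PVN) of 54 libraries correlated best with their own number out of 6. Libraries with the same number thus tended to resemble each other, a hint from the data and not from the design, since the labels do not say what a number marks. With the replicate number as a block, 0 members passed over the 9 groups in each region, and all genes that passed went from 89 to 22 in the MBH, from 1008 to 227 in the DMH and from 3 to 75 in the PVN. Without the hamster block, 6 members differed between DMH and MBH, where 6083 of 17693 genes passed in either direction.

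Depth limits the less abundant members: the median library held 3 Mog counts in the MBH, 3 Mag counts in the DMH and 1 Cldn11 count in the PVN.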

Other observations

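Within the PVN, Mbp and Mobp differed between hamsters that carry different replicate numbers in the labels, a comparison chosen after seeing the data. The medians of Mbp over 9 libraries per number were 116, 486, 991, 967, 434 and 220 CPM for numbers 1 to 6, and those of Mobp 80.5, 271, 550, 371, 121 and 110 CPM. Libraries of number 1 ran from 0 to 532 CPM of Mbp and those of number 4 from 261 to 2056 CPM, so the ranges overlap. The adjusted p was 8.59e-06 for Mbp and 8.28e-05 for Mobp (edgeR, over 18960 genes, of which 1.14% passed). In the MBH, Mobp had an adjusted p of 0.0874 and Mbp of 0.116 by edgeR, where 0.516% of all genes passed, and in the DMH no member passed, where 2.29% did. The labels do not say what a replicate number marks.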
